A study of Homo sapiens with 4 samples.

Results

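The imprinted genes of 11p15 were followed in a list of CTCF binding sites. The 10 genes were chosen by name (H19, IGF2, INS, TH, ASCL2, KCNQ1, KCNQ1OT1, CDKN1C, SLC22A18 and PHLDA2), out of 58419 annotated genes on chromosomes 1 to 22 and X. The peaks were chosen by position alone, as all those with a centre on chromosome 11 from 1.8 to 3.1 Mb (hg38). That gave 33 of 42388 peaks on the same chromosomes. The series mapped CTCF in 4 samples of MDA-MB-435, an established line of human melanoma cells, by sequencing DNA recovered with an antibody (ChIP-seq). Both asynchronous replicates were precipitated with a rabbit antibody against CTCF. Both mitotic replicates, arrested with thymidine (2 mM, 24 h), released for 3 h and arrested again with nocodazole (100 ng/mL, 16 h), were precipitated with a custom antibody against CTCF phosphorylated at T431. Only asynchronous replicate 1 was analysed here, so no value below has a replicate check, mitosis was not compared, and no test between groups was made. A peak list holds no expression, so the cell line was not checked against marker genes.

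Imprinted genes are transcribed mainly from the copy inherited from one parent. In the H19 and IGF2 domain, CTCF is known to bind the unmethylated maternal copy of an imprinting control region just upstream of H19, where it insulates IGF2 from enhancers beyond H19. In the neighbouring KCNQ1 domain the antisense RNA KCNQ1OT1, made from the paternal copy, is known to accompany silencing of CDKN1C, PHLDA2 and SLC22A18 on that copy. The peak list does not separate the parental copies.

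Sequences 5′ to 3′ from RefSeq (GRCh38.p14) are shown for selected promoters of the region, each from 250 bases before to 50 bases after a start site. Of the 10 genes, 3 had such an entry. H19 is shown because it lay in the longest peak-free stretch of the region, and SLC22A18 because its promoter held a longer CTCF-like match. INS is shown because peaks lay close on both sides of the gene, 3.14 and 5.11 kb away. TSSC4, a neighbouring gene, is shown because its promoter was the only 1 of 23 in the region that overlapped a peak. In H19 and INS the capitals mark CCCTC or its reverse complement, in SLC22A18 the match to the 12-letter core described after the sequences, and in TSSC4 the 74 bases that lay under the peak.
H19, chr11:2001217-2001516, minus strand: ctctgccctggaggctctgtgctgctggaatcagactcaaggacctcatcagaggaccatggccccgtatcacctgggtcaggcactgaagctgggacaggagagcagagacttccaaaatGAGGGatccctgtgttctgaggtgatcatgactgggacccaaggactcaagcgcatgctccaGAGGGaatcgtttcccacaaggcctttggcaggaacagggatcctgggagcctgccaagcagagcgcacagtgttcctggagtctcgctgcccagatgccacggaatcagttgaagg
INS, chr11:2161160-2161459, minus strand: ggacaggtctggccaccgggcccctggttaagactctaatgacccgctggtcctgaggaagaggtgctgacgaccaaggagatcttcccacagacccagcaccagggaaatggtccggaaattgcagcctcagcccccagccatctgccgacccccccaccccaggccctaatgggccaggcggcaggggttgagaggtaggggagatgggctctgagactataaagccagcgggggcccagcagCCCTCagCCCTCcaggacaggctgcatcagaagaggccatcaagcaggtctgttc
SLC22A18, chr11:2902028-2902327, plus strand: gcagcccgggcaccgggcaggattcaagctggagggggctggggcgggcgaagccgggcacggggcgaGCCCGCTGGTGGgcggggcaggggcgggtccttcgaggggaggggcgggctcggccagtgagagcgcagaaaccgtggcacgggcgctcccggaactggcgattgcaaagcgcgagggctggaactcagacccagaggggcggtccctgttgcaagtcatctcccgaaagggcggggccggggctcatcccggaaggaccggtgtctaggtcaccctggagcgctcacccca
TSSC4, chr11:2400500-2400799, plus strand: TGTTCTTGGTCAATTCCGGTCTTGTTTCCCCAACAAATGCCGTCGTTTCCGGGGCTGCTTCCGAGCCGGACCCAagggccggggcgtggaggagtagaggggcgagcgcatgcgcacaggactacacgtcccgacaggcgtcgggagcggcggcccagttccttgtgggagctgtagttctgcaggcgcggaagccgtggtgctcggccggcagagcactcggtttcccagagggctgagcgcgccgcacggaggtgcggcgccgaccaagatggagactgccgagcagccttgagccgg

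The short motif CCCTC was common in promoters and did not set those of the region apart. This pentamer, after which CTCF is named, was present on either strand in 19 of the 23 promoters of the region and in 71.3% of 34961 promoters of the same length. A 12-letter core (CCA, then any 2 bases, AG, any 2 bases, GGC, either strand) was present in 1 of the 23, the SLC22A18 promoter, and in 2.41% of all promoters. That motif was chosen after the data were seen. Among all promoters it was present in 10.7% of the 2652 of which at least 150 bases lay under a peak and in 1.72% of the 31078 that no peak touched. A stricter 14-letter core (CCGCG, any base, GG, any base, GGCAG) was in 0 of the 23 and in 0.0658% of all promoters. The SLC22A18 start with the match was 10.0 kb from the nearest peak. The listed H19 start, at the higher-coordinate end of its annotated span, was 83.4 kb and the INS start 4.57 kb from the nearest peak.

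No peak lay within 1 kb of an annotated end of any of the 10 genes. The 95% Clopper-Pearson interval of 0 of 10 was 0 to 30.8%, and a count of 0 in 10 allows a share of up to 30%. The same call was made for 28.4% of 19821 protein-coding genes, 14.3% of long noncoding RNA genes and 16.1% of genes of any kind. The interval includes all of these shares, so 10 genes do not tell the group from the background. The distance from a gene end to the nearest peak ran from 1.47 kb at PHLDA2 to 77.3 kb at H19. Its median was 4.39 kb over the 10 genes and 4.23 kb over protein-coding genes. The medians were close, while each of the 10 genes fell outside the 1 kb window. With the window at 500 bp the count was also 0 of 10, against 20.6% of protein-coding genes. With the window at 5 kb, 5 of the 10 genes had a peak at an end (IGF2, INS, TH, CDKN1C and PHLDA2), against 53.2%. With 10 kb, 7 had one, SLC22A18 and KCNQ1OT1 being added, against 67.6%. Of the 3 genes with a listed start site, 0 had a peak within 1 kb of it, against 21.2% of all genes with one listed.

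**Figure D1:**
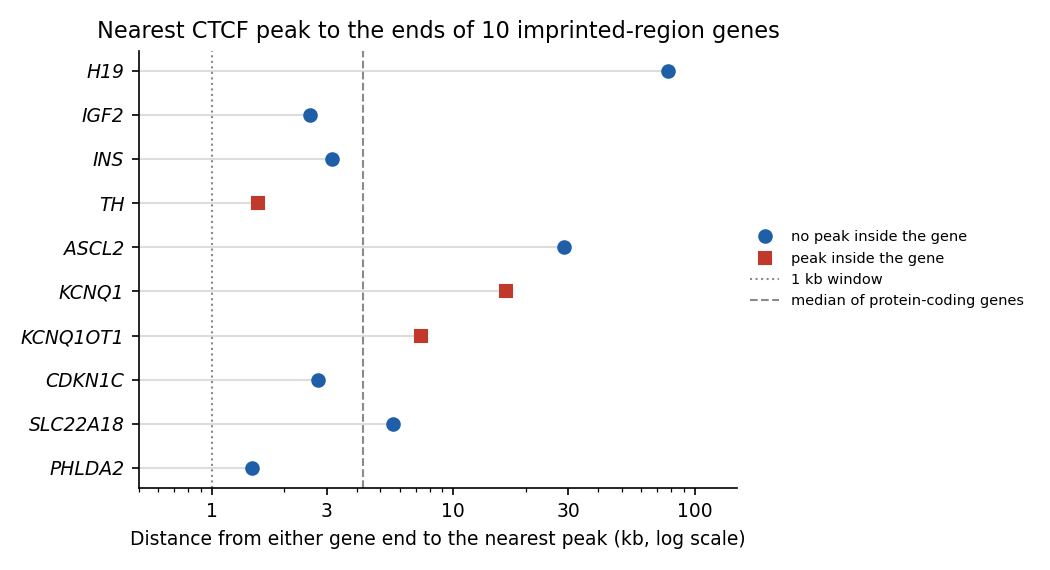
Distance in kb, on a log axis, from either annotated end of each of the 10 genes to the nearest CTCF peak centre in asynchronous replicate 1. Squares mark the 3 genes with a peak inside, the dotted line the 1 kb window and the dashed line the median of protein-coding genes (4.23 kb). All 10 points lie to the right of 1 kb, from 1.47 kb at PHLDA2 to 77.3 kb at H19.

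A peak inside the gene or within 1 kb of it was found for 3 of the 10, TH, KCNQ1 and KCNQ1OT1 (30%, 6.67 to 65.2%), against 58.2% of protein-coding genes and 31.6% of genes of any kind. The interval includes both shares. With 5 kb in place of 1 kb the count was 7 of 10, against 67.8% of protein-coding genes. KCNQ1OT1 lies wholly inside KCNQ1, so 1 peak counted for both. Together these genes held 5 of the 33 peaks. The remaining 28 lay outside the listed genes. Gene length was not matched in the shares above, and long genes have more room for a peak. KCNQ1 was 404 kb and KCNQ1OT1 91.7 kb long, while INS, ASCL2, CDKN1C and PHLDA2 were 1.15 to 2.56 kb.

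**Figure D2:**
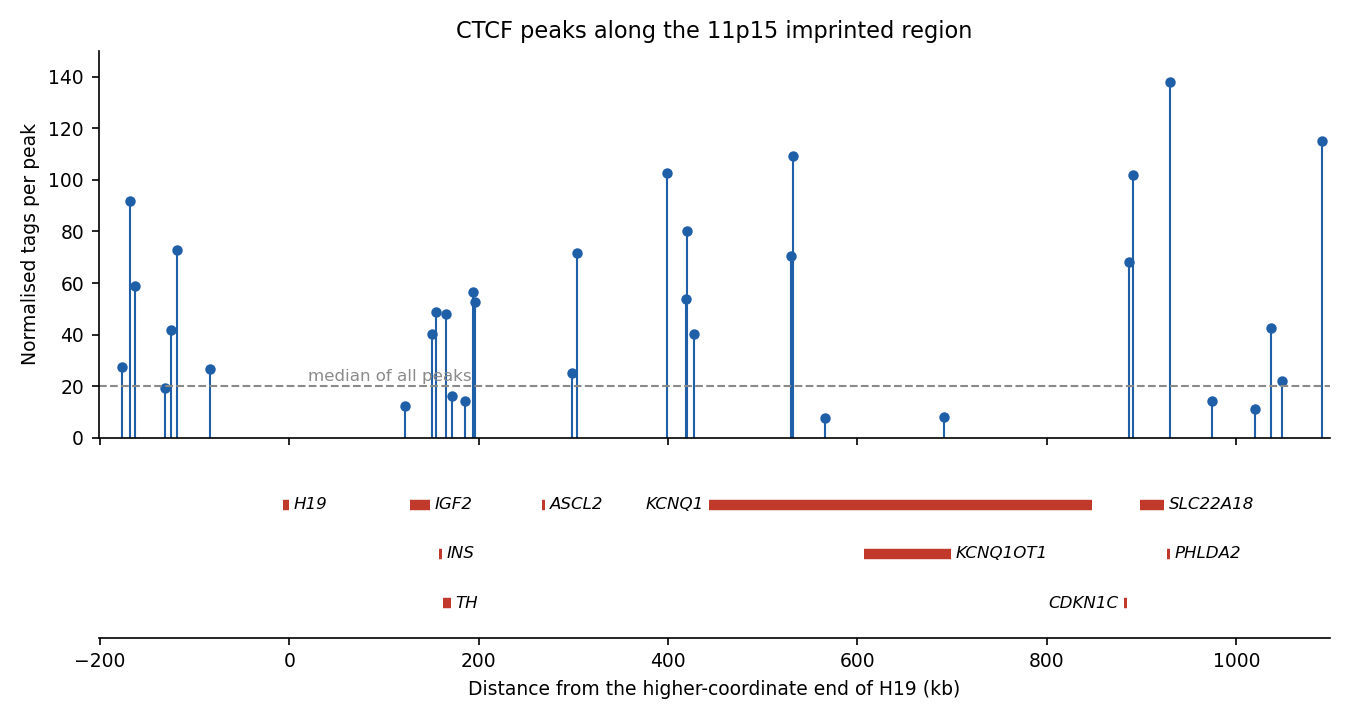
Normalised tags (tags per peak in a library scaled to 10000000 tags) of the 33 peaks by distance in kb from the higher-coordinate end of H19, with the 10 genes as bars underneath (genes under 3 kb are drawn 3 kb wide). Peaks stand in groups, with a tallest value of 137.9 beside PHLDA2, and the stretches over H19 and over much of KCNQ1 are empty or hold peaks under the median of all peaks (20).

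H19, which encodes an imprinted long noncoding RNA, was the farthest of the 10 genes from a peak. The gene (chr11:1995176-2001266) lay in a stretch of 206 kb between peak centres, and 6.22% of all 42365 stretches in the list were at least as long. Long stretches take up more sequence than short ones, so that is not a share of genes. By gene, 4.25% of protein-coding genes were at least as far from a peak at either end. The peak before it (chr11:1917661-1918009) held 26.8 normalised tags (95% Poisson interval 19.8 to 34.9) and was 77.3 kb from the gene. It stood 127 bp from the end of PRR33. The peak after it (chr11:2123284-2123632) held 12.5 (8.005 to 18.6) and was 122 kb away. The intervals of the 2 peaks, which cover counting error only, did not overlap.

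The same stretch held TNNT3 (a fast muscle troponin subunit), MRPL23 (a mitochondrial ribosomal protein), MRPL23-AS1, LINC01219 and MIR675, the microRNA gene inside H19. The nearest peak to MIR675 was 78.9 kb away. Its mature products are shown with the seed (bases 2 to 8) in capitals, because they are the only microRNAs of the region inside a listed gene that the sequence table holds. Their seeds differ.
hsa-miR-675-5p: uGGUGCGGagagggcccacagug
hsa-miR-675-3p: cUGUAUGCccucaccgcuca

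Between H19 and IGF2 there was 1 peak, which held few tags. The interval between the ends of the genes was 128 kb long, and its first 122 kb from H19 (95.6%) held none. H19 itself, 6.09 kb long as annotated here, held none either. The control region was not placed by coordinates, so how it divides between this gene span and the interval was not determined. The only peak, with 12.5 normalised tags, lay 5.66 kb from the end of IGF2. Of all peaks, 27.8% had as few tags or fewer. Its local background (normalised tags divided by the fold over the surrounding 10 kb) was 0.772, the lowest of the 33 peaks. A site was listed only at a caller's score of at least 15 and at 4-fold over its surroundings, and the listed peaks held from 6.51 normalised tags upward. Sites below those thresholds are not in the list, so the stretch has no listed peak rather than a level of 0.

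IGF2 (chr11:2129117-2149566), a fetal growth factor made mainly from the paternal copy, held no peak inside. The next peak beyond its other end (chr11:2151949-2152297) was 2.56 kb away and held 40.1 normalised tags (31.6 to 50.1). The peaks on the 2 sides of IGF2 therefore differed in tags by more than counting error, 12.5 against 40.1. As fold over the surrounding 10 kb the order was the reverse, 16.2 against 6.74. The 40.1 peak had an unfocused shape, with a focus ratio (the part of a peak's tags that fall on the correct side of its centre for their strand) of 0.751, and 12.6% of all peaks had a ratio that low. Its local background was 5.95, and 99.3% of all peaks had that value or less. Another peak stood 4.51 kb from it, within the 10 kb over which the background is taken.

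INS, the insulin gene, and TH, which encodes tyrosine hydroxylase of catecholamine synthesis, lay in a dense group. Between IGF2 and ASCL2 there were 7 peaks, the first and last 45.3 kb apart. INS (chr11:2159779-2161209) had no peak inside. The peak before it (chr11:2156461-2156809) was 3.14 kb away with 48.9 normalised tags (39.5 to 59.9). The peak after it was 5.11 kb away with 47.9 (38.6 to 58.7), and the intervals of both flanking peaks overlapped. The latter peak (chr11:2166140-2166488) lay inside TH (chr11:2163929-2171815), 2.39 kb from an end of TH, and stood 34.6-fold over its surroundings. TH was thus the only protein-coding gene of the list other than KCNQ1 with a peak inside.

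Beyond TH came 2 weak peaks and then 2 strong ones. A peak 1.55 kb past TH (chr11:2173195-2173543) held 16.4 normalised tags (11.4 to 23.5) and lay 231 bp from the end of MIR4686, a microRNA gene. The next held 14.1 (9.26 to 20.4). The last pair (chr11:2194967-2195315 and chr11:2197261-2197609), 2.29 kb apart, held 56.5 (46.6 to 68.4) and 52.6 (42.8 to 63.9). The intervals of the 2 weak peaks overlapped each other and lay below those of the 5 strong ones. The read-through gene INS-IGF2 spans both IGF2 and INS, and the 40.1 and 48.9 peaks lay inside it.

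**Figure D3:**
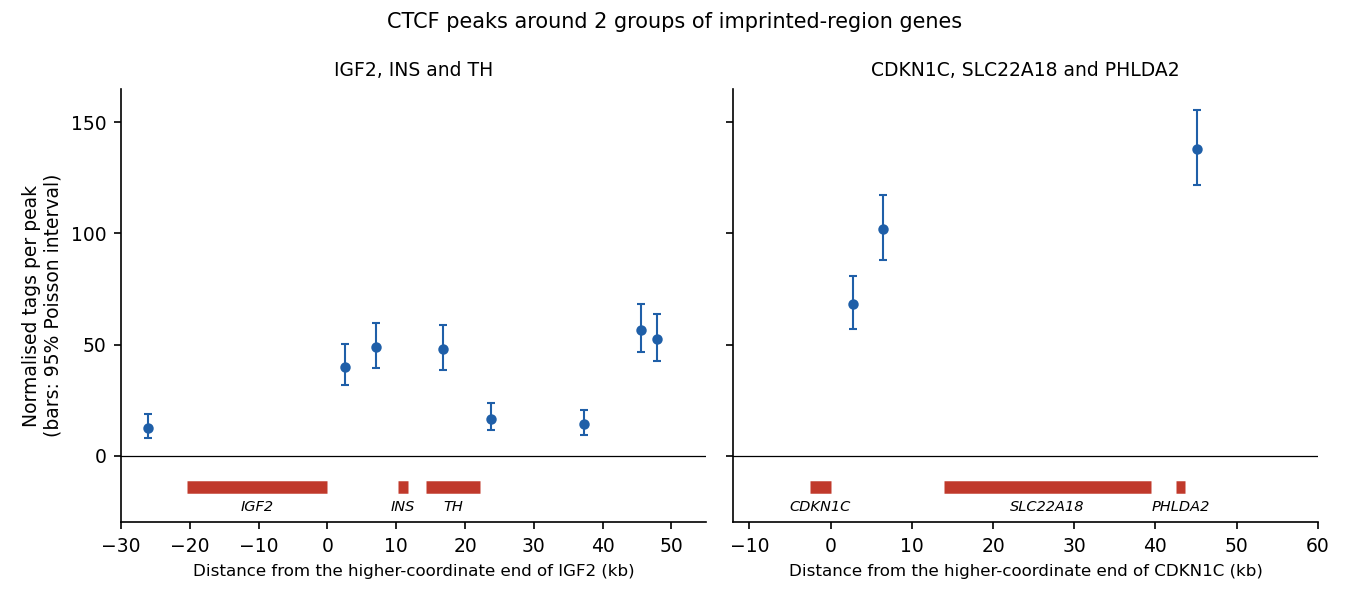
Normalised tags of each peak with 95% Poisson intervals, around IGF2, INS and TH (left) and around CDKN1C, SLC22A18 and PHLDA2 (right), by distance in kb from the higher-coordinate end of IGF2 or CDKN1C, with genes as bars. The left group runs from 12.5 to 56.5 normalised tags, and the 3 peaks on the right, from 68.2 to 137.9, lie above all of them.

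ASCL2, a transcription factor known for its role in placenta and intestinal stem cells, had no peak over a span of 102 kb. The strong pair of the INS and TH group ended 71.1 kb before it. The next peak lay 28.8 kb after it and held 25.2 normalised tags (18.4 to 33.1), inside C11orf21. Of protein-coding genes, 13.1% were at least as far from a peak at either end.

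KCNQ1, the gene of a cardiac and epithelial potassium channel subunit, was the longest of the 10 at 404 kb and held 4 peaks, or 0.990 per 100 kb (0.270 to 2.53). The rest of chromosome 11 had 1.68 per 100 kb, which lies inside that interval. The 4 peaks were of very unequal strength. An adjoining pair (chr11:2531368-2531716 and chr11:2532783-2533131), 1.42 kb apart, lay 86.5 and 87.9 kb inside the gene and held 70.3 (58.9 to 83.2) and 109.1 (95.03 to 125) normalised tags. The latter ranked 30 of the 2274 peaks of chromosome 11. The other two held 7.81 (4.37 to 12.9) and 8.07 (4.76 to 13.5), near the low end of the list, where 3.82% and 5.60% of all peaks had as few tags or fewer. The intervals of the strong pair did not overlap those of the weak peaks. The nearest peak to either end of KCNQ1 lay outside it, 16.6 kb from its lower-coordinate end, and held 40.1 normalised tags.

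KCNQ1OT1 (chr11:2608328-2699994) held 1 of the weak peaks. It had 8.07 normalised tags and lay 7.40 kb from the gene's higher-coordinate end. Its focus ratio was 0.684, the lowest of the 33, and 3.78% of all peaks had a ratio that low. The neighbouring peaks were 126 kb away on one side and 196 kb on the other. The strong KCNQ1 pair was 75.4 kb from the other end of KCNQ1OT1.

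CDKN1C, an inhibitor of cyclin-dependent kinases, lay near the end of a stretch of 196 kb. The gene (chr11:2883218-2885775) had no peak for 191 kb on its lower-coordinate side. Most of that distance was the higher-coordinate 157 kb of KCNQ1, with 7.40 kb of KCNQ1OT1 inside it, and KCNQ1DN lay in the remainder. On the other side a peak 2.76 kb away (chr11:2888359-2888707) held 68.2 normalised tags (57.0 to 80.9), and one 6.49 kb away (chr11:2892088-2892436) held 102 (88.2 to 117). The 2 intervals did not overlap. Both peaks lay inside SLC22A18AS, the antisense neighbour of SLC22A18. The first had a local background of 8.005, the highest of the 33, which includes tags of the other peak 3.73 kb away.

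SLC22A18, a transporter gene (chr11:2899691-2925246, SLC67A1 in the annotation used), and PHLDA2, a small gene known to restrain placental growth (chr11:2928273-2929420), shared a stretch of 38.6 kb between strong peaks. Neither had a peak inside. SLC22A18 was 7.43 kb from the 102 peak on one side and 5.64 kb from the next peak on the other. That peak (chr11:2930715-2931063), 1.47 kb from PHLDA2, held 137.9 normalised tags (122 to 156). It was the strongest of the region, ranked 15 of 2274 on chromosome 11, and its tags were at least those of 99.6% of all peaks. Its interval lay above those of both peaks beside CDKN1C. No other peak was within 10 kb of it, and its local background of 4.48 was the highest among the 11 isolated peaks of the region.

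The peaks of the region within 1 kb of an end of a protein-coding gene lay at genes outside the list. Of 15 other protein-coding genes, 3 had a peak within 1 kb of an end (20%, 4.33 to 48.1%), against the same 28.4% in all. That interval overlaps the one of the 10 listed genes (0 to 30.8%), so listed and other genes are not told apart. SYT8, a synaptotagmin gene, had 91.6 normalised tags (78.6 to 106) 807 bp inside it and 58.8 (48.5 to 70.7) 380 bp beyond its other end. PRR33 had the 26.8 peak, and TSSC4 had 102.5 (88.7 to 118) 351 bp from its end. These 4 peaks were 12.1% of the 33, against 12.4% of all peaks.

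Of 18 neighbouring genes, 11 had a peak inside or within 1 kb (61.1%, 35.7 to 82.7%). The list includes CTSD just outside the region and some RNA genes. The share was 58.2% of protein-coding genes and 31.6% of genes of any kind, and neither set matches that mix. LSP1, a leukocyte actin-binding protein gene, held 3 peaks with 19.3, 41.9 and 72.6 normalised tags. TRPM5, a taste cell ion channel gene next to KCNQ1, held 53.9, 80.2 and 40.1. TSPAN32 held 1 peak with 71.8. On the far side of PHLDA2, NAP1L4 held 14.3, CARS1 held 11.2, 42.7 and 21.9, and OSBPL5 held 115 within the region. CD81, a tetraspanin gene, held none and was 3.00 kb from the TSSC4 peak. TNNI2, a troponin gene, was 1.08 kb from a SYT8 peak.

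The peaks of the region were strong for this list. Their median was 47.9 normalised tags (7.81 to 137.9), against 21.9 on the rest of chromosome 11 and 20 over all other peaks. A value among the highest 10% of the list (at least 55.2) was found for 13 of the 33 (39.4%, 22.9 to 57.9%), against 10.1% of all peaks. Among the lowest 25% (at most 12) were 3 of 33, against 25.6%. Cut into consecutive windows of 1.3 Mb, the genome gave 2185 with at least 1 peak, and in 5 of these, this region included, the median was 47.9 or more. Neighbouring peaks and windows are not independent replicates.

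By medians, the difference in tags was larger among closely spaced peaks than among isolated ones. Of the 33, 22 had a neighbour within 10 kb (66.7%), against 33.3% of all other peaks. Among those with a neighbour the median was 53.25 normalised tags in the region and 23.4 elsewhere. Among the 11 without one it was 21.9, against 18.5. These 11 were widely spread, from 7.81 to 137.9, and some of the strongest peaks of the region (137.9, 115 and 102.5) were among them. As fold over the surrounding 10 kb the region's median was 15.6 and that of all other peaks 13.6. Those surroundings include tags of close neighbours, which were commoner in the region. Among peaks with a neighbour within 10 kb the median fold was 14.6 in the region and 11.6 elsewhere. Among isolated peaks it was 16.2 against 14.7. The split at 10 kb pooled unlike peaks of the region. Those with the nearest neighbour 1.02 to 4.51 kb away had local backgrounds of 3.86 to 8.005 and folds of 6.74 to 20.65. Those with it 5.31 to 8.27 kb away had backgrounds of 1.27 to 2.33 and folds of 10.8 to 40.7. Peaks elsewhere were not split in this way. The median local background was 2.09 in the region and 1.47 elsewhere, and 1.59 and 1.35 at isolated peaks. With no control library named, extra DNA copies and stronger binding cannot be told apart in tag counts.

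**Figure D4:**
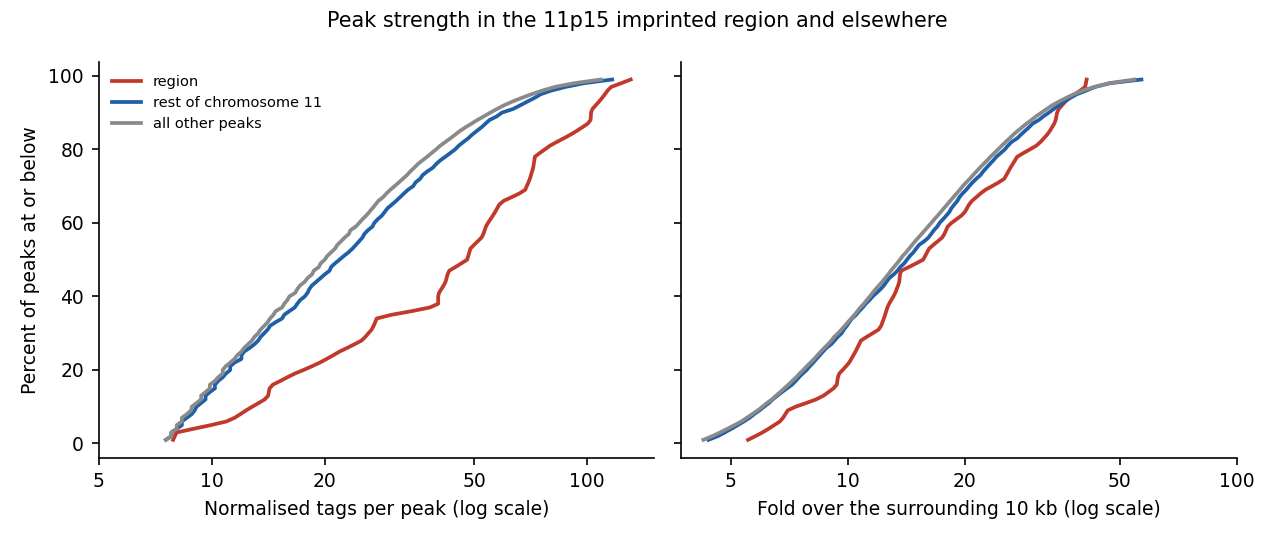
Percent of peaks at or below each value of normalised tags (left) and of fold over the surrounding 10 kb (right), both on log axes, for the 33 peaks of the region, the rest of chromosome 11 and all other peaks. The region's curve is far to the right for tags (median 47.9 against 20) and close to the others for fold (15.6 against 13.6). Fold is taken over surroundings that include tags of close neighbours.

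Peaks were denser in the region than on the rest of the chromosome, and unevenly spread. There were 2.54 per 100 kb (1.75 to 3.56), against 1.68 (1.61 to 1.75) on the rest of chromosome 11, a ratio of 1.52 (1.04 to 2.13). These intervals cover counting error only and treat peaks as independent, so with peaks in groups they are too narrow. Of 2185 consecutive windows of 1.3 Mb, 11.4% held at least 33 peaks, and 9.15% held at least as many protein-coding genes as this one (23). On chromosome 11, 18 of 99 such windows, this region included, held at least 33 peaks. The last peak before the lower limit, 35.7 kb outside, held 13 normalised tags and the first inside 27.6. At the upper limit the last peak inside held 115 and the first outside, 10.3 kb away, 51.3.

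Neighbouring peaks of the region were a median of 14.8 kb apart, against 35.1 kb in the whole list. Stretches over 90 kb made up 6 of 32 (18.75%), against 21.7% of all stretches, and took up 65.3% of the distance from the first to the last peak, as in the whole list (65.7%). The 3 listed genes that lay whole in such stretches were H19, ASCL2 and CDKN1C. Another 2 of the 6 stretches, of 103 and 126 kb, lay within or across KCNQ1, and the sixth, of 94.9 kb, lay over CD81 between TSPAN32 and TSSC4. IGF2, INS, SLC22A18 and PHLDA2 lay whole in stretches of 9.68 to 38.6 kb.

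**Figure D5:**
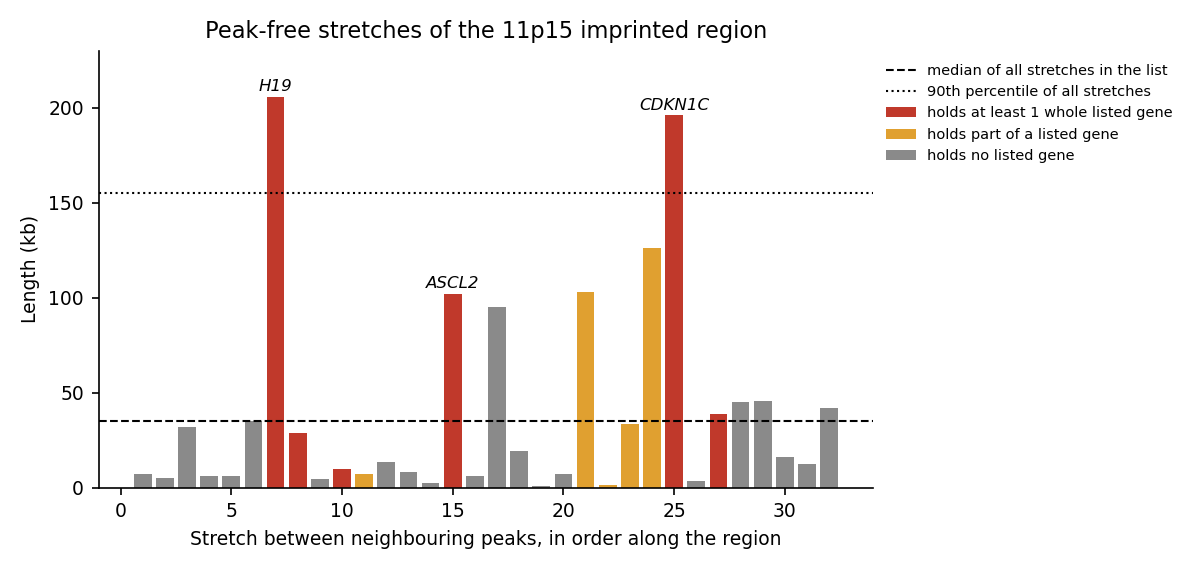
Length in kb of the 32 stretches between neighbouring peaks, in order along the region, coloured by whether a stretch holds a whole listed gene, part of one or none. The H19 (206 kb) and CDKN1C (196 kb) stretches exceed the 90th percentile of all stretches in the list (155 kb, dotted), while most others lie under the median (35.1 kb, dashed).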

How the data were processed

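The series holds 4 CTCF ChIP-seq samples. The 1 peak list used, of asynchronous replicate 1, had 42462 peaks of 349 bp and a depth of 19210460 tags, and 3 samples were not analysed here. The submitters' processing notes name Bowtie2, HOMER and hg38. Tool versions were not given in the sources used. Per the file headers, peaks were called in 1 library with no control named, at a tag threshold of 15 (also the lowest score in the list), a false discovery rate of 0.001, a local p of 1e-04 and 4-fold over 10 kb around the peak, with at most 1 tag per position. The deposited tag signal counts tags in a library scaled to 10000000, per the file headers. The focus ratio, as deposited, is a fraction between 0 and 1, and the deposited fold over the local region and clonal fold are ratios. The deposited score is the authors' caller's own value and was used only for thresholds. The deposited p-value was not used.

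Gene positions came from a RefSeq table of GRCh38.p14, the assembly of hg38. All 10 genes matched, SLC22A18 through an older symbol. Alternate and unplaced sequences were left out. The table has no exons, so exonic and intronic peaks were not separated. Distances run from peak centres. Tag counts, recovered from the scaled values and rounded, gave exact Poisson 95% intervals. Shares have Clopper-Pearson intervals. Chromosome length was taken up to the last gene or peak. Repeated tags can make intervals too narrow, since scaled tags were not held to 1 per position. No test was run, because there was 1 library.

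Named were all 10 genes, every peak at a gene end and a fixed list of 18 neighbours. Members, lists and settings were chosen with earlier results of these data known. The alternatives varied the limits, windows, score threshold, merging and scaling. Distance code was checked on simulated peaks. Software was scipy 1.17.1, pandas 2.3.3 and numpy 2.4.6 on Python 3.11.15, with matplotlib 3.10.9 for plots.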

Additional observations from a re-analysis of the deposited data

How the results depend on the processing

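The peak count of the region (33) ran from 23 with the limits drawn in by 100 kb to 38 with them moved out by 100 kb. The density ratio to the rest of chromosome 11 (1.52) was 1.82 against all chromosomes and 2.12 for peaks at or above the median score. The number of genes with a peak at an end was 0 of 10 with windows of 500 bp (20.6% of protein-coding genes) and 1 kb, 5 with 5 kb and 7 with 10 kb (67.6%). It was also 0 of the 3 genes with a listed start, where 21.2% of such genes had a peak within 1 kb of one. A peak inside or within 5 kb was found for 7 of 10 genes in place of 3 (67.8% of protein-coding genes). The stretch with H19 was 234 kb with peaks at or above the median score, since the weak peak beside IGF2 then drops out. The median of the region over that of all peaks (2.40 for tags) was 1.15 for fold over the local region and, chosen after seeing the data, 1.18 for isolated peaks. All other alternatives left these values within 1.5 times or within counting error. Sites under the caller's thresholds (a score of 15 and 4-fold over the surroundings) are not listed, so a stretch without a peak may hold weaker sites. No paired analysis was possible because 1 library was used and no test was run.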
